A study of Mus musculus with 6 samples.

Results

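The angiopoietin-TIE axis was examined through 7 genes in endothelial isolates from mouse lungs: the ligands Angpt1 and Angpt2, the receptors Tek (TIE2) and Tie1, the phosphatase Ptprb (VE-PTP) and the transcription factors Foxo1 and Foxo3. The genes were chosen by name for their place in this pathway, and all 7 were found among the 56941 genes of the count table and among the 18562 that passed the filter on low counts. Polyadenylated RNA came from floxed mice (FL, genotype FUNDC1-FLOX, 3 libraries) and from mice labelled EC-KO (genotype FUNDC1-KO, 3 libraries). Fundc1 encodes a mitophagy receptor of the outer mitochondrial membrane, and the series is titled for pulmonary hypertension. In both groups cells were taken from lung with magnetic beads, dead cells were removed, and the medium held serum and endothelial growth supplement. The sources used here do not give the Cre driver, the age and sex of the mice or the bead antibody, and sample titles say PAECs where the protocols describe whole lungs. Nothing in the labels states that replicates are separate animals, so a p-value here covers only library-to-library spread, which may be technical.

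Angiopoietin 1, made mostly by pericytes, smooth muscle, fibroblasts and platelets, binds TIE2 on endothelium and activates it. TIE2 then signals through PI3 kinase and AKT, and AKT phosphorylates FOXO1, which leaves the nucleus. Angiopoietin 2 is made by endothelium itself, is stored in Weibel-Palade bodies, is a target gene of FOXO1, and acts on TIE2 as a weak agonist or an antagonist depending on context. TIE1 has no well-defined angiopoietin ligand of its own and pairs with TIE2, and VE-PTP removes phosphate from TIE2.

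The isolates held RNA of several cell types, and the 2 groups differed in their markers. Total counts were between 26658998 and 34306962 per library. Fundc1 itself was at 29.2 ± 3.68 CPM (counts scaled to a common library size with TMM factors) in FL and 15 ± 2.78 CPM in EC-KO (SD, n = 3 each), with a log2 fold change of -0.96 and an adjusted p of 0.00796 in edgeR. Endothelial identity markers were present in every library, and Cdh5 lay between 718 and 2484 CPM. The summed level of 22 pan-endothelial markers, none of them among the 7 genes, was 10538 to 14366 CPM in FL and 5011 to 9413 CPM in EC-KO, and 11 of the 22 were called lower and 0 higher. The count lower was 19 without EC-KO 2, 9 without FL 1, 5 without FL 2 or EC-KO 3, and 4 without FL 3 or EC-KO 1. Summed levels of 13 smooth muscle and pericyte markers were 640 to 892 CPM in FL and 306 to 454 CPM in EC-KO, and 8 were called lower, with 11 without EC-KO 2, 4 without EC-KO 1 and 6 to 7 with any other single library left out. Those of 13 fibroblast markers were 539 to 725 CPM and 1104 to 2906 CPM, and 9 were called higher. That count was 7 without FL 1, 10 without EC-KO 3 and 8 with any other single library left out. Summed levels of 10 megakaryocyte and platelet markers were 26.2 to 68.8 CPM in FL and 78.2 to 126 CPM in EC-KO. Of these, 4 were called higher (3 with any 1 EC-KO library left out, 2 without FL 2 or FL 3, 6 without FL 1). Gp1bb was at 0 in all libraries. Epithelial markers were called higher in 14 of 14 cases (14 without EC-KO 2, 13 without FL 2, 11 without FL 3). Macrophage and monocyte markers were called lower in 13 of 14 (14 without EC-KO 2, 12 without FL 2). Lymphatic endothelial markers summed to 1896 to 2688 CPM in FL and 535 to 1074 CPM in EC-KO, with 5 of 8 called lower and a median of -1.46, and neutrophil and mast cell markers to 1498 to 2881 CPM and 484 to 558 CPM, with 5 of 8 called lower (both 5 without EC-KO 2). Of 8 lymphocyte markers 2 were called higher and 2 lower (3 and 2 without EC-KO 2). These counts were 1 and 0 without FL 2, 1 and 1 without FL 3, and 0 and 2 without EC-KO 1. Without FL 1 or EC-KO 3 they were 2 and 1. EC-KO 2 stood apart from the other EC-KO libraries, with an endothelial marker mean of -0.42 relative to FL on the log2 scale against -1.33 and -1.36 in EC-KO 1 and 3, and calls that change without it are given both ways. In bulk RNA, fewer cells of a type and less RNA per cell cannot be told apart.

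**Figure D1:**
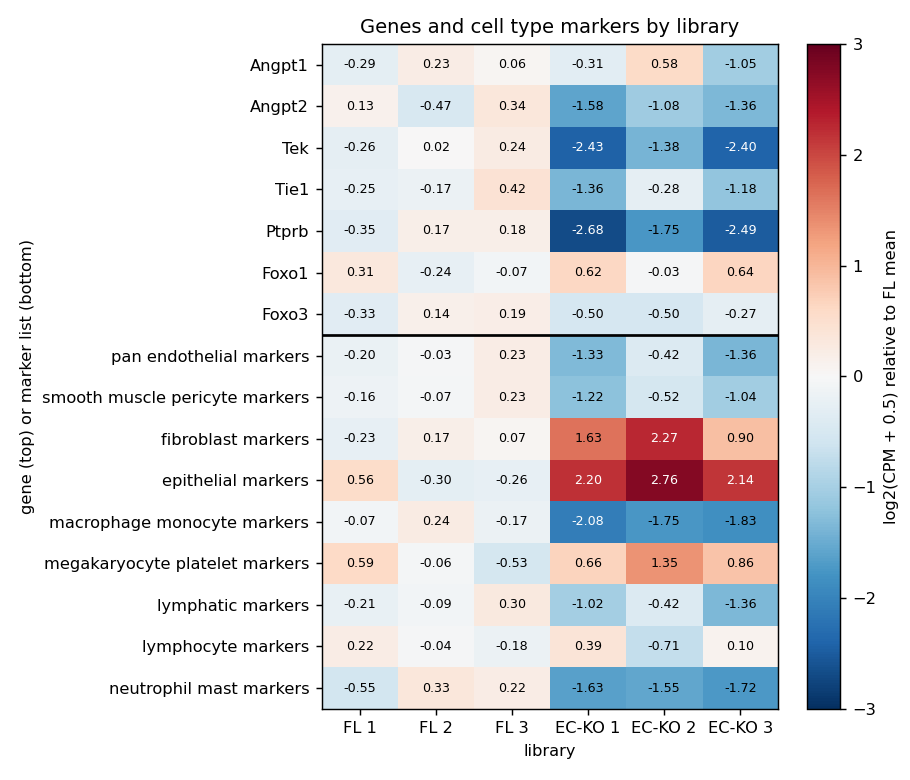
Each cell is the log2(CPM + 0.5) of a gene (top 7 rows) or the mean over a marker list (lower rows) in 1 library, relative to the mean of the FL libraries. Tek and Ptprb are at or below -1.38 in each EC-KO library, while the pan-endothelial mean is at -0.42 in EC-KO 2 and about -1.3 to -1.4 in the other EC-KO libraries.

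In the EC-KO libraries 3 of the 7 genes were called lower, Ptprb, Tek and Angpt2, and 0 were called higher. Over all tested genes 13.5% were called lower and 13.5% higher (27.1% in either direction, at an adjusted p under 0.05). The median log2 fold change of the 7 was -0.89, against 0.03 over all tested genes and -0.93 over the pan-endothelial markers. Expression did not overlap between the groups in 4 of the 7, all lower, and over all tested genes 45.4% did not overlap, 22.8% being lower. The FOXO factors and Angpt1 were not called in either direction. Without EC-KO 2, 4 genes were called lower (Tie1 in addition) and 1 higher (Foxo1).

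**Figure D2:**
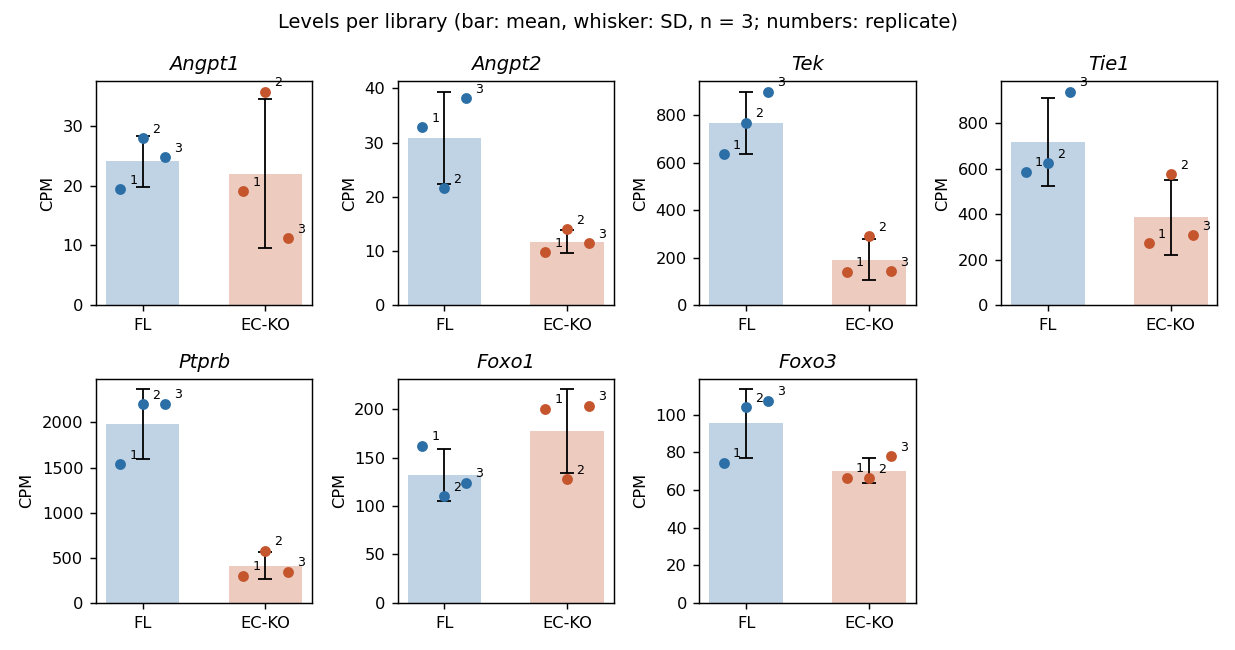
Points are CPM in each library, numbered by replicate, with bars for the group mean and whiskers for the SD (n = 3). All EC-KO points lie below all FL points for Angpt2, Tek, Tie1 and Ptprb, and the groups overlap for Angpt1, Foxo1 and Foxo3.

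Tek, the gene for the angiopoietin receptor TIE2 (ENSMUSG00000006386, chromosome 4, 94627526 to 94763213, plus strand, positions as the count table gives them), fell. Its level was 636, 769 and 899 CPM in FL 1 to 3 and 141, 291 and 144 CPM in EC-KO 1 to 3. The highest EC-KO library, EC-KO 2, was still below the lowest FL library. Group means were 768 ± 132 and 192 ± 85.8 CPM (SD, n = 3 each). Tested in edgeR, the log2 fold change was -2.0 with SE 0.31 and adjusted p = 0.00253, or 4.0-fold lower. Of the 22 pan-endothelial markers, 1 had a lower log2 fold change than Tek, which was the lectin gene Clec14a at -3.17.

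Tie1, the gene for the second receptor of the family (ENSMUSG00000033191, chromosome 4, 118328388 to 118347258, minus strand), was at 587, 622 and 938 CPM in FL 1 to 3. In EC-KO 1 to 3 it was at 272, 576 and 308 CPM. The groups did not overlap, but EC-KO 2 came close to FL 1. Group means were 716 ± 193 and 386 ± 166 CPM (SD, n = 3 each), where edgeR gave -0.89 on the log2 scale (SE 0.31, adjusted p = 0.0615), which missed the threshold. Without EC-KO 2 the fall was called (-1.33, adjusted p = 0.00261), as it was by DESeq2 (adjusted p = 0.0184), by limma-voom (0.0441) and without the filter on low counts (0.0337). Of the 22 endothelial markers, 12 had a lower log2 fold change than Tie1.

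The ratio of the receptors did not overlap between the groups. Both genes were counted in the same library, so their ratio is free of any scaling between libraries. Per kilobase of exon, Tie1 over Tek was 0.885, 0.776 and 1.00 in FL 1 to 3. The same ratio was 1.85, 1.90 and 2.05 in EC-KO 1 to 3. The ratio in EC-KO 2, the library that stood apart in cell markers, lay between those of the other EC-KO libraries. Such a ratio is not free of the mix of cells in an isolate, whose part in it was not tested. On the log2 scale the ratio went from -0.18 ± 0.18 to 0.95 ± 0.08 (SD, n = 3 each), a difference of 1.13, with p = 0.10 in a two-sided exact permutation test. That is the smallest p that 3 against 3 libraries can give. It was 0.24 after Benjamini-Hochberg adjustment over the 12 ratios computed, and leaving out any 1 library gave differences between 1.04 and 1.22.

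The start regions of these receptor genes are shown because their transcripts moved by unequal amounts. RefSeq promoter sequences on GRCm38.p6 were used for 4 of the 7 genes (Tek, Tie1, Foxo1 and Foxo3). The 250 bases before each RefSeq start were searched on both strands for the forkhead motif GTAAACA (reverse TGTTTAC), which FOXO factors bind, and the ETS motif AGGAAG (reverse CTTCCT), which endothelial ETS factors bind. The motifs do not overlap each other. The forkhead letters were in 0 of the 4 windows and in 3.17% of all 32851 promoter windows of that length. The ETS letters were in 1 of the 4, that of Tie1, and in 29.5% of all windows. The Tek sequence is the 250 bases at chr4:94739039-94739288, plus strand. The Tie1 sequence is the outermost 38 bases of its window, at chr4:118490062-118490099, minus strand, since GENCODE places the bases nearer the start inside the gene. Capitals mark the ETS match.
Tek: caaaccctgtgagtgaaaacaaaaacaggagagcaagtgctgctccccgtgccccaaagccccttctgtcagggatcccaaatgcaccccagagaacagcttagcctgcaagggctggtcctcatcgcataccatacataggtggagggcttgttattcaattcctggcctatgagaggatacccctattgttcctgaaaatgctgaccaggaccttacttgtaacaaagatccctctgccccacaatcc
Tie1: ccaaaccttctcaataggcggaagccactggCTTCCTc

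Ptprb, the gene for VE-PTP (ENSMUSG00000020154, chromosome 10, 116111428 to 116225440, plus strand), had the largest fold change of the 7 genes. Levels were 1535, 2199 and 2206 CPM in FL 1 to 3 and 303, 580 and 346 CPM in EC-KO 1 to 3. The groups were far apart, with the lowest FL library well above the highest EC-KO library. Group means were 1980 ± 385 and 410 ± 149 CPM (SD, n = 3 each). Tested in edgeR, the log2 fold change was -2.27 with SE 0.29 and adjusted p = 0.00117, or 4.83-fold lower. Per kilobase, Ptprb over Tek was 0.853, 1.01 and 0.867 in FL 1 to 3 and 0.761, 0.704 and 0.852 in EC-KO 1 to 3. These ranges did not overlap but nearly touched, with a log2 difference of -0.24 (exact permutation p = 0.10, adjusted 0.24). Leaving out 1 library gave differences between -0.31 and -0.16.

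Angpt2, the gene for angiopoietin 2 (ENSMUSG00000031465, chromosome 8, 18740279 to 18791578, minus strand), fell from a much lower level. It was at 32.9, 21.5 and 38.2 CPM in FL 1 to 3 and at 9.73, 14.0 and 11.4 CPM in EC-KO 1 to 3. The EC-KO libraries lay close together and below the lowest FL library, FL 2. Counts behind these levels were between 337 and 1255 per library. Group means were 30.9 ± 8.51 and 11.7 ± 2.14 CPM (SD, n = 3 each). Tested in edgeR, the log2 fold change was -1.40 with SE 0.25 and adjusted p = 0.00459, or 2.64-fold lower. Angpt2 lies within the span of Mcph1 on the opposite strand, with which it shares 0 exon bases.

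Angpt1, the gene for the activating ligand (ENSMUSG00000022309, chromosome 15, 42288119 to 42540373, minus strand), did not pass the test. Its level was 19.4, 28.0 and 24.8 CPM in FL 1 to 3 and 19.1, 35.7 and 11.3 CPM in EC-KO 1 to 3. EC-KO 2 was the highest and EC-KO 3 the lowest of all 6 libraries, a 3.17-fold spread within the EC-KO group against 1.44-fold within FL. Group means were 24.1 ± 4.32 and 22 ± 12.5 CPM (SD, n = 3 each), where edgeR gave -0.13 on the log2 scale (SE 0.36, adjusted p = 0.821.) Beside this, EC-KO 2 had the highest fibroblast (2906 CPM) and megakaryocyte and platelet (126 CPM) sums of all libraries, and the highest smooth muscle and pericyte sum (454 CPM) of the EC-KO group. EC-KO 3 had the lowest fibroblast sum of that group (1104 CPM), which was above all FL sums (539 to 725 CPM). For smooth muscle and pericyte markers EC-KO 1 was lowest (306 CPM, against 357 CPM in EC-KO 3). EC-KO 1 was also lowest of the group for megakaryocyte and platelet markers (78.2 CPM, against 89.2 CPM in EC-KO 3). The part of these cells in the Angpt1 level was not tested. The log2 fold change was -0.69 without EC-KO 2 (adjusted p = 0.0583) and 0.18 without EC-KO 3 (0.715), so its sign turned on 1 library. Of its exon length, 14.2% is shared with Gm17473 on the opposite strand, which had mean counts of 6.67 in FL and 4 in EC-KO.

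The ratio of the ligands overlapped between the groups. Per kilobase, Angpt2 over Angpt1 was 2.39, 1.09 and 2.17 in FL 1 to 3 and 0.718, 0.552 and 1.43 in EC-KO 1 to 3. EC-KO 3 exceeded FL 2. The log2 difference was -1.11, with p = 0.20 in the exact permutation test (adjusted 0.267). Angpt2 over Tek was 0.0660, 0.0358 and 0.0543 in FL 1 to 3 and 0.0882, 0.0614 and 0.101 in EC-KO 1 to 3, also with overlap (log2 difference 0.70, exact permutation p = 0.20, adjusted 0.267).

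Foxo1, the gene for the forkhead factor that AKT holds out of the nucleus (ENSMUSG00000044167, chromosome 3, 52175757 to 52260642, plus strand), was at 162, 110 and 124 CPM in FL 1 to 3. In EC-KO 1 to 3 it was at 201, 128 and 204 CPM. EC-KO 1 and 3 lay above all FL libraries, and EC-KO 2 lay within their range. Group means were 132 ± 26.8 and 177 ± 43.0 CPM (SD, n = 3 each), where edgeR gave 0.42 on the log2 scale (SE 0.23, adjusted p = 0.195.) Without EC-KO 2, Foxo1 was called higher (0.58, adjusted p = 0.0293). Transcript levels say nothing of where the FOXO1 protein lies in the cell.

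Foxo3, which encodes a related factor under the same control (ENSMUSG00000048756, chromosome 10, 42057837 to 42152751, minus strand), was not called either. It was at 74.6, 104 and 108 CPM in FL 1 to 3 and at 66.6, 66.2 and 78.1 CPM in EC-KO 1 to 3. FL 1 lay below EC-KO 3, so the groups overlapped. Group means were 95.4 ± 18.1 and 70.3 ± 6.77 CPM (SD, n = 3 each), where edgeR gave -0.44 on the log2 scale (SE 0.18, adjusted p = 0.101.) Without FL 1 it was called lower (-0.62, adjusted p = 0.0380). Foxo1 over Foxo3 per kilobase was 1.90, 0.925 and 1.01 in FL 1 to 3 and 2.63, 1.68 and 2.28 in EC-KO 1 to 3. FL 1 lay above EC-KO 2, and the log2 difference of 0.84 had p = 0.20 in the exact permutation test (adjusted 0.267).

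**Figure D3:**
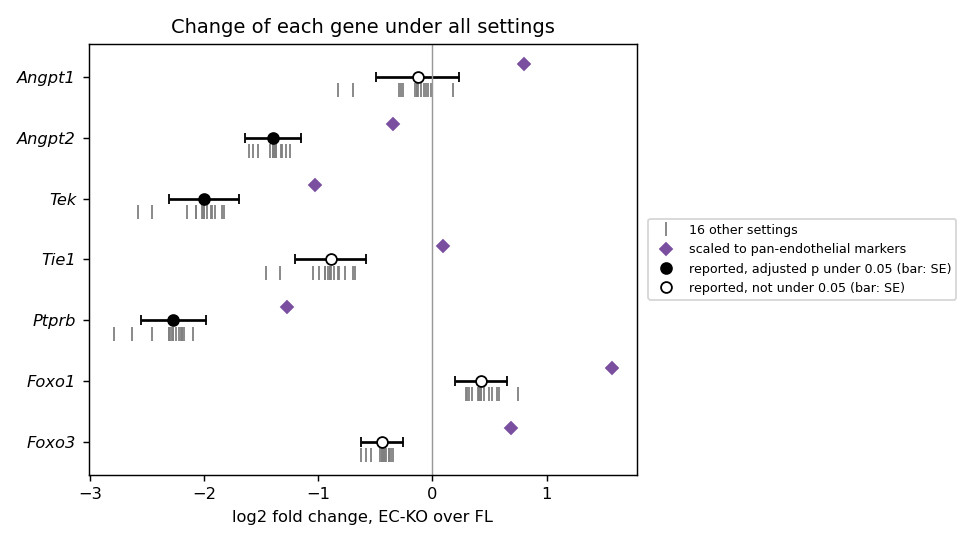
The horizontal axis is the log2 fold change of EC-KO over FL, with circles for the reported fit (filled where called, bars for the SE), grey marks for 16 other settings and diamonds for scaling to pan-endothelial markers. Tek and Ptprb stay left of -1 under all settings drawn, and the diamonds of Angpt1, Tie1 and Foxo3 lie right of 0.

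The order of the 7 genes by level per length was not the same in the 2 groups. In FL, as CPM per kilobase of exon (RPKM), Tek (163 ± 27.9), Ptprb (149 ± 28.9) and Tie1 (146 ± 39.3) led and overlapped each other. Next came Foxo1 (15.2 ± 3.10) and Foxo3 (12.6 ± 2.39), which also overlapped, then Angpt2 (8.37 ± 2.31), whose highest library exceeded the lowest of Foxo3. Angpt1 (4.62 ± 0.831) was lowest and did not overlap Angpt2. In EC-KO, Tie1 led (78.4 ± 33.8), above Tek (40.7 ± 18.2) and Ptprb (30.7 ± 11.2). The range of Tek overlapped those of Tie1 and Ptprb, while those of Tie1 and Ptprb did not overlap, and Tie1 was above Tek in each library. Foxo1 followed at 20.5 ± 4.97, with its highest library (23.5) above the lowest of Ptprb (22.7). Foxo3, at 9.29 ± 0.894, did not overlap Foxo1. Angpt1 (4.23 ± 2.40) and Angpt2 (3.17 ± 0.581) were lowest and overlapped (all RPKM, SD, n = 3 each).

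Set against endothelial markers of the same library, Tek and Ptprb lay lower in each EC-KO library than in any FL library and Tie1 overlapped between the groups. Tek less the mean of the 22 markers, in log2 CPM, was 1.2, 1.29 and 1.26 in FL 1 to 3 and 0.16, 0.29 and 0.21 in EC-KO 1 to 3. The spread within a group was small beside the difference of -1.03 (exact permutation p = 0.10, adjusted 0.24). That difference lay between -1.07 and -1.0 with any 1 library left out. It was smaller, -0.81, when the median of the markers replaced their mean. For Ptprb the values less the marker mean were 2.47, 2.81 and 2.56 in FL and 1.26, 1.28 and 1.48 in EC-KO, a difference of -1.27 (exact permutation p = 0.10, adjusted 0.24). Tie1 was at 1.13 ± 0.17 in FL and 1.23 ± 0.11 in EC-KO (SD, n = 3 each), and the groups overlapped (difference 0.10, exact permutation p = 0.50, adjusted 0.50). Angpt2 differed by -0.33 with overlap (exact permutation p = 0.40, adjusted 0.436). Angpt1 was higher relative to the markers in each EC-KO library than in any FL library (difference 0.77, exact permutation p = 0.10, adjusted 0.24). Foxo1 differed by 1.45 and Foxo3 by 0.62, with overlap in both cases (exact permutation p = 0.20 and 0.30, adjusted 0.267 and 0.36). When the whole fit was scaled to these markers, the median of all genes moved from 0.03 to 1.12. Tek (-1.03, adjusted p = 0.0104) and Ptprb (-1.27, 0.00450) were then still called lower and Foxo1 was called higher (1.57, 0.0116). Angpt2 was not called (-0.35, 0.371), and the log2 fold changes of Tie1, Angpt1 and Foxo3 turned to 0.10, 0.80 and 0.69. The marker list was chosen with earlier results of these data known, and its own members ranged from -3.17 to 0.20 in the reported fit.

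**Figure D4:**
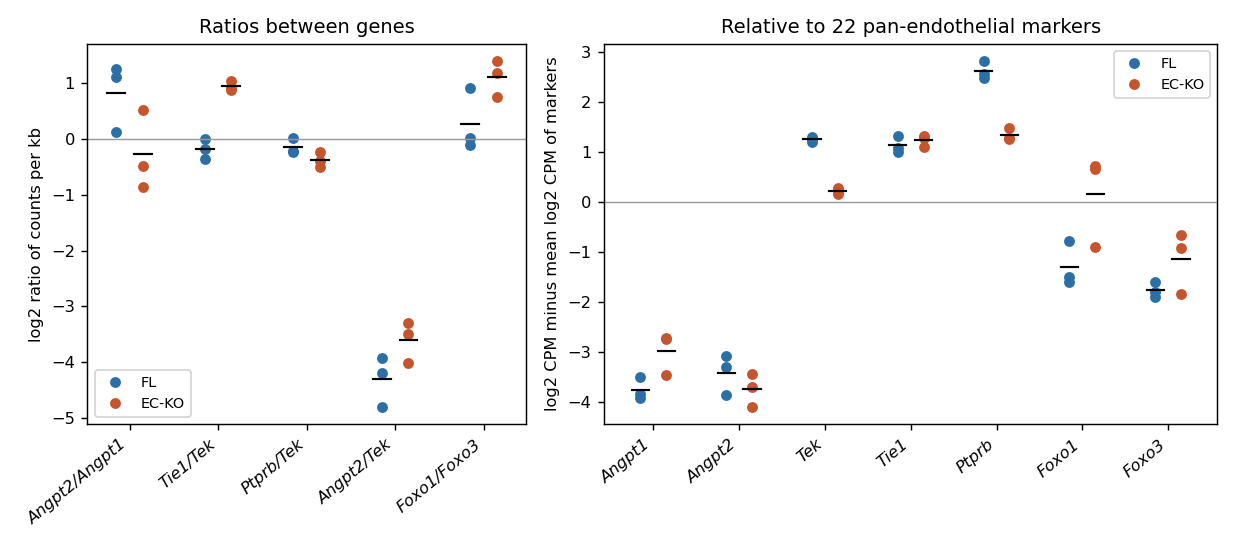
Points are libraries and lines are group means of log2 ratios of counts per kilobase between 2 genes (left) and of log2 CPM less the mean of 22 pan-endothelial markers (right). Tie1 over Tek lies between -0.37 and 0.00 in FL and between 0.89 and 1.04 in EC-KO, and relative to the markers Tek and Ptprb separate the groups while Tie1 does not.

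The lists of pathway genes that follow are read against the 13.5% of all tested genes called in each direction. Of 16 relatives, matrix partners and shedding proteases of the angiopoietin system, 13 were tested, 1 was called higher and 1 lower (7.69% each), with a median log2 fold change of 0.05. Adam10, a membrane protease that sheds many surface receptors, was at 131, 163 and 158 CPM in FL 1 to 3 and at 58.2, 68.0 and 57.2 CPM in EC-KO 1 to 3 (-1.30 ± 0.16 SE, adjusted p = 0.00109). Svep1, a large matrix protein that binds angiopoietins and the receptor PEAR1, was at 15.2, 29.7 and 19.6 CPM in FL and 41.7, 94.2 and 32.6 CPM in EC-KO (1.38 ± 0.40 SE, adjusted p = 0.0326). EC-KO 2, the highest for Svep1, also had the highest fibroblast sum (2906 CPM), whose part in the value was not tested. Svep1 was not called without FL 1 (adjusted p = 0.103), FL 3 (0.115), EC-KO 1 (0.0524) or EC-KO 2 (0.0549, with the fold change at 0.76), nor without the filter on low counts (0.176). The list had 0 higher and 3 lower without EC-KO 2, and 2 higher and 2 lower without EC-KO 3.

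Among 24 genes of signalling below TIE2, 5 were called higher (20.8%) and 2 lower (8.33%), with a median of -0.15. Kinase genes of the main route, Akt1 (-0.22, adjusted p = 0.345), Akt2 (0.34, 0.132) and Pik3ca (0.01, 0.948), were not called. They are named for their role and were picked after their values were seen. Nck1, an adaptor, fell by 0.88 on the log2 scale (adjusted p = 0.00724) and its partner kinase Pak1 by 0.66 (0.0161). Rictor, the scaffold of the mTOR complex that phosphorylates AKT, rose (0.81, 0.0228), as did the receptor adaptors Grb14 (1.07, 0.0175), Grb7 (1.11, 0.0197) and Shc1 (0.49, 0.0320). The fifth gene called higher, Tnip2 (0.49, adjusted p = 0.0498), lay just under the threshold and is named after its value was seen. Many of these calls rested on single libraries, and the whole list had 0 higher and 1 lower without FL 2, 0 and 2 without FL 3, 2 and 2 without EC-KO 1 and also without EC-KO 3, 3 and 2 without FL 1, 4 and 8 without EC-KO 2, and 2 and 2 with the replicate block. Pak1 missed the threshold without FL 2 (adjusted p = 0.0759). Rictor was not called with FL 2, FL 3, EC-KO 1 or EC-KO 3 left out (0.0719, 0.109, 0.0670 and 0.0783) or with the replicate block (0.0504). Grb14 missed the threshold with any 1 FL library left out (0.05005, 0.0754 and 0.0516), and Grb7 with FL 2 or FL 3 left out (0.0719 and 0.0856). Shc1 was called among the leave-outs of 1 library only without EC-KO 2, with adjusted p between 0.0798 and 0.145 in the others, and it was lost with the replicate block (0.0957) and without the filter (0.0980).

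Among 21 relatives and regulators of FOXO factors, 1 was called higher (4.76%) and 2 lower (9.52%), with a median of -0.09. Sgk3, a kinase related to AKT, was at 37.6, 53.1 and 46.4 CPM in FL 1 to 3 and at 17.2, 15.9 and 16.1 CPM in EC-KO 1 to 3 (-1.48 ± 0.18 SE, adjusted p = 0.000972). The EC-KO libraries were nearly equal, EC-KO 2 included. Xpo1, the exportin that carries FOXO proteins out of the nucleus, went from 145 ± 16.2 to 70.5 ± 13.7 CPM (SD, n = 3 each; -1.04, adjusted p = 0.00527). Sirt1, a deacetylase that acts on FOXO proteins, rose from 89.1 ± 7.64 to 138 ± 5.42 CPM (0.63, 0.0138), though not without FL 1 (0.0532) or FL 3 (0.0852). Foxo4, a further family member, was at 43.9 ± 2.0 and 48.9 ± 5.80 CPM (0.16, adjusted p = 0.472, chosen after its values were seen). Without EC-KO 2 the list had 3 higher and 6 lower, and without FL 3 it had 0 higher.

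Of 32 known target genes of FOXO factors listed, 29 were tested, 4 were called higher (13.8%) and 8 lower (27.6%), with a median of -0.13. Over all tested genes the shares were 13.5% in each direction, and the difference was not tested. Fbxo32, an atrophy-linked ubiquitin ligase gene, rose from 14.4, 15.6 and 17.5 CPM in FL 1 to 3 to 49.3, 47.1 and 55.1 CPM in EC-KO 1 to 3 (1.67 ± 0.16 SE, adjusted p = 0.000466). Irs2, an insulin receptor substrate, rose from 145 ± 43.2 to 438 ± 143 CPM (1.59, 0.00683), with EC-KO 2 lowest of the EC-KO libraries at 275 CPM. Pdk4, a kinase that restrains pyruvate oxidation (1.10, 0.0103), and Sesn3, a sestrin (1.06, 0.0226), rose too. Txnip, the thioredoxin inhibitor, fell from 797 ± 208 to 213 ± 10.9 CPM (-1.90, adjusted p = 0.000891), and Mxi1, a MYC antagonist, from 94.0 ± 7.31 to 39.1 ± 1.26 CPM (-1.26, 0.000835) (SD, n = 3 each). Cdkn1b, the cell cycle inhibitor p27 (-1.05, 0.00277), and Klf2, the flow-responsive endothelial factor (-1.11, 0.00387), fell as well. Esm1 (0.22, adjusted p = 0.491) and Apln (-0.17, 0.753), which like Angpt2 are made by angiogenic endothelium, were not called and were chosen after their values were seen. Sesn3 was not called with FL 2, FL 3, EC-KO 1 or EC-KO 3 left out (adjusted p = 0.0819, 0.0982, 0.0775 and 0.0702), nor Pdk4 without FL 2 (0.0502), where the list had 2 higher and 7 lower. Tbx3, also called lower (-1.01, adjusted p = 0.0498), lay just under the threshold and is named after its value was seen. The list had 5 higher and 9 lower without EC-KO 2, and 3 higher and 6 lower without EC-KO 1 or EC-KO 3. It had 4 higher and 6 lower without FL 3.

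Angiopoietin 2 shares its storage granule with von Willebrand factor, and of 18 genes of Weibel-Palade bodies and their release 17 were tested, with 1 higher (5.88%) and 3 lower (17.6%) and a median of -0.18. Myrip, which tethers the granules to actin, was at 44.5, 56.3 and 102 CPM in FL 1 to 3 and at 11.9, 25.0 and 17.5 CPM in EC-KO 1 to 3 (-1.90 ± 0.36 SE, adjusted p = 0.00601). Rab27a, the GTPase that recruits it, went from 57.7 ± 14.4 to 29.8 ± 1.54 CPM (-0.95, 0.00947) and Rab3d, another granule GTPase, from 34.2 ± 5.18 to 16.4 ± 6.76 CPM (-1.06, 0.0226) (SD, n = 3 each). Rab15 rose from a low level, 2.22 ± 0.646 to 8.69 ± 1.76 CPM (1.97, 0.00208). The main cargo gene Vwf, chosen after its values were seen, was at 605 ± 138 and 407 ± 135 CPM (-0.57, adjusted p = 0.137). Rab3d was not called with FL 2, FL 3, EC-KO 1 or EC-KO 3 left out (0.0681, 0.0800, 0.0849 and 0.0678), and the falls numbered 7 without EC-KO 2, 4 without FL 1 and 2 with FL 3, EC-KO 1 or EC-KO 3 left out. The rises numbered 2 without EC-KO 3.

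VE-PTP belongs to the receptor-type tyrosine phosphatases. Of 19 other genes of this family listed, 18 were matched and 17 tested, with 4 higher (23.5%) and 5 lower (29.4%) and a median of -0.16. Ptprr, a phosphatase of MAP kinases, was at 1.90, 3.24 and 4.39 CPM in FL 1 to 3 and at 0.347, 0.376 and 0.371 CPM in EC-KO 1 to 3 (-3.11 ± 0.40 SE, adjusted p = 0.00130). Ptpra (-0.87, 0.00475), Ptpru (-1.37, 0.00920) and Ptprm, an adhesion-type phosphatase (-1.0, 0.0125), also fell. Ptprf, the phosphatase LAR, rose from 22.6 ± 4.39 to 72.1 ± 14.6 CPM (1.68, 0.00125), and Ptprd, its close relative, from 14.6 ± 1.94 to 37.1 ± 11.5 CPM (1.34, 0.00481) (SD, n = 3 each). Ptprn2 (1.63, 0.0239) and Ptprn (1.02, 0.0360), known from neuroendocrine granules, rose from means of 0.464 and 1.74 CPM. Beside the rises stand the epithelial marker sums, 1882 to 4439 CPM in FL and 11431 to 16981 CPM in EC-KO, whose part in them was not tested. Ptprj, another phosphatase of endothelium, chosen after its values were seen, was at 242 ± 33.9 and 172 ± 25.3 CPM (-0.49, adjusted p = 0.0733). Ptprm was not called without FL 3 (0.0524) or EC-KO 1 (0.0541). Ptprn2 was not called with FL 2, FL 3, EC-KO 2 or EC-KO 3 left out (0.0852, 0.0718, 0.0560 and 0.0586) or with the replicate block (0.0610). Ptprn was lost without each library in turn (0.0525 to 0.122) and with the block (0.0792), and the rises in the list numbered 2 with FL 2, FL 3, EC-KO 2 or EC-KO 3 left out. The falls in the list numbered 6 without EC-KO 2, and 4 with FL 2, FL 3, EC-KO 1 or EC-KO 3 left out.

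**Figure D5:**
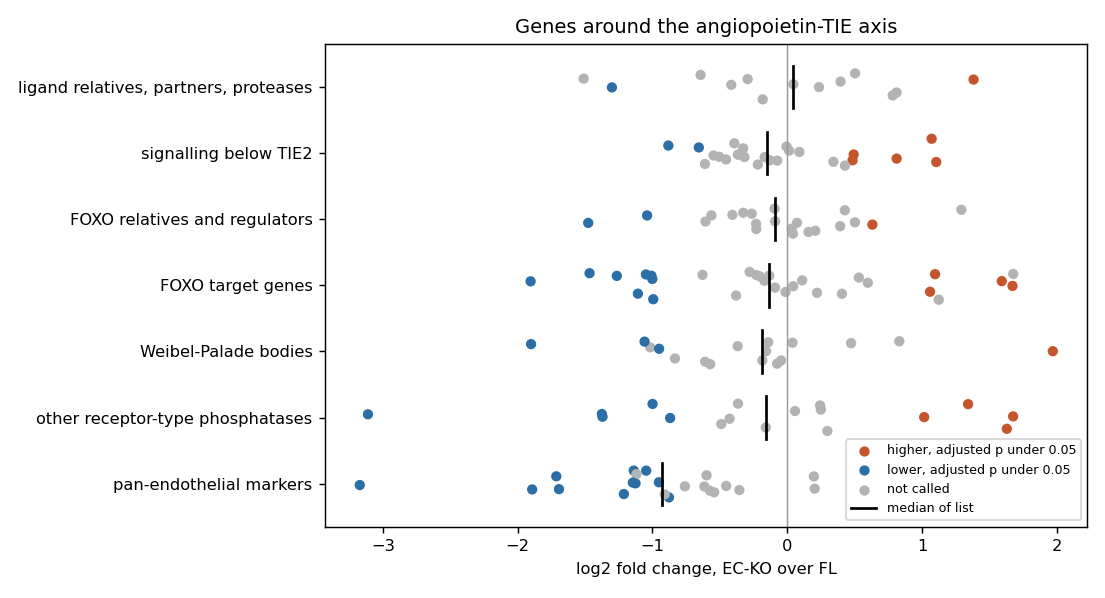
Each point is a tested gene at its log2 fold change of EC-KO over FL, by list, coloured where called, and black bars mark medians. The medians of the 6 pathway lists lie between -0.18 and 0.05, and that of the pan-endothelial markers at -0.93.

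When the fit was scaled to the pan-endothelial markers, 1 of the falls in these 6 lists was still called in the Weibel-Palade list and 1 among the phosphatases, those of Myrip and Ptprr, and 0 in the other 4 lists, while 54.5% of all genes were called higher.

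The genes nearest to each member in profile were found among 12584 other named genes with an average log2 CPM of at least 1. Likeness was the root mean square difference over the 6 libraries of log2 CPM less the gene's mean, and these distances carry no test. Nearest to Tek were Acer2 (0.07) and Lyve1 (0.09), to Ptprb Cxcl12 (0.10) and Mctp1 (0.11), and to Tie1 Cracr2b (0.05) and Tmtc2 (0.06). Acer2 encodes an alkaline ceramidase, Lyve1 a hyaluronan receptor that is in the lymphatic marker list (5 of 8 called lower) and Cxcl12 a chemokine, and their log2 fold changes were -2.12, -1.91 and -2.24. Angpt2 was nearest to Pter (0.13) and Gsr (0.13), the latter being glutathione reductase. Angpt1 was nearest to Ednra (0.09), the endothelin A receptor, and Tmem119 (0.13). Foxo1 was nearest to Rrnad1 (0.05) and Sft2d1 (0.08), and Foxo3 to Rnf169 (0.07) and Inpp5k (0.07).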

How the data were processed

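The authors deposited raw gene counts keyed by Ensembl ID (featureCounts layout, per the file headers) and a summary of alignment counts per class. Per the submitters' processing notes, mm10, STAR 2.7.10b and featureCounts 2.0.3 were used. The strand setting, gene annotation version and aligner options were not found in these sources. Symbols were matched for 51948 of 56941 genes through GENCODE M21. Only 2.80% of these, and 0 of the 7 members, start where GRCm38 places them, so table coordinates are printed with the build unresolved. The exon length in bases is a value the deposited table gives, and counts were divided by it for RPKM. There were 2 per-sample columns that match no sample, and these were not used. Counts were fitted with edgeR 4.0.16 (R 4.3.3): filterByExpr, TMM scaling, robust quasi-likelihood F test of EC-KO against FL over 6 libraries, two-sided, Benjamini-Hochberg over 18562 genes, threshold 0.05. SE is the absolute log2 fold change over the square root of F. Alternatives used DESeq2 1.42.0, limma 3.58.1 (voom), other scalings and filters, a replicate block and left-out libraries. Ratios were tested by exact permutation over libraries, and the edgeR script was checked on simulated counts. Named genes were the members, up to 4 called genes per direction and list by smallest p, and the 2 nearest profiles per member. Members, gene lists, markers and alternatives were chosen with earlier results of these data known, and list counts under the alternatives were added after seeing the data. Motifs, the bases shown and the search window were also chosen then. From the list of signalling below TIE2, 2 genes are not reported here and enter none of its counts. Figures used matplotlib 3.10.9.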

Additional observations from a re-analysis of the deposited data

How the results depend on the processing

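Tek and Ptprb were called lower under all 17 alternatives run, and Angpt2 under 16 of 17. Tie1 was called under 5, Foxo1 under 3, Foxo3 under 2 and Angpt1 under 1. Over all genes 5029 were called (2515 higher, 2514 lower), and leaving out 1 library gave 2547 to 6740 (1169 to 3009 higher, 1314 to 3731 lower), with 3 to 5 members changed, 0 to 1 higher and 3 to 4 lower. Without FL 1 and EC-KO 2, the libraries nearest the other group in endothelial markers and left out together with that known, 7554 genes were called (4074 lower), and 7 members (1 higher, 6 lower). With pan-endothelial scaling 10390 genes were called (10108 higher, 282 lower), with 1 member higher, and the cause was not tested beyond the shift of the median that this scaling makes by construction. Under it the sign turned for Angpt1 (0.80), Tie1 (0.10), Foxo3 (0.69), Nck1 (0.17), Pak1 (0.46), Xpo1 (0.10), Cdkn1b (0.074), Insr (0.042), Bnip3 (0.039), Rab27a (0.16), Ptpra (0.20), Ptprm (0.066), Ednra (0.83), Tmem119 (0.66), Cracr2b (0.17), Tmtc2 (0.027), Rnf169 (0.65) and Inpp5k (0.67). With 1 library left out, Angpt1 ranged from -0.69 to 0.18, Ednra from -0.66 to 0.21 and Tmem119 from -0.83 to 0.024, each lowest without EC-KO 2 and highest without EC-KO 3, and Ednra was also above 0 without FL 2 (0.12). Upper-quartile and library-size scaling moved the median gene to 0.11 and 0.12. With the replicate number as a block 3848 genes and the same number of members (3) were called. Deviations from the group mean had correlations of 0.05, 0.07 and -0.18 between same-numbered libraries. So few values cannot tell whether the numbers pair the libraries. With 3 libraries a group, no ratio could reach a p below 0.10.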

Other observations

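Of the 8 FOXO target genes already counted above as called lower, 3 more are described here. They were chosen after their values were seen. Insr, the insulin receptor gene, was at 81.3, 81.5 and 96.0 CPM in FL 1 to 3 and at 35.0, 52.9 and 41.3 CPM in EC-KO 1 to 3, with a log2 fold change of -1.0 ± 0.19 (SE) and an adjusted p of 0.00591, while its substrate gene Irs2 rose (1.59). Tnfsf10, which encodes the death ligand TRAIL, went from 123 ± 15.3 to 44.4 ± 15.9 CPM (SD, n = 3 each; -1.47, adjusted p = 0.00387). Bnip3, a mitophagy receptor gene like Fundc1, went from 22.7 ± 5.97 to 11.4 ± 3.25 CPM (-0.99, adjusted p = 0.0223), and missed the threshold with FL 3, EC-KO 1 or EC-KO 3 left out (0.0877, 0.0854 and 0.0692). With pan-endothelial scaling none of these 3 falls was called (adjusted p = 0.908 for Insr, 0.168 for Tnfsf10 and 0.911 for Bnip3).

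Pan-endothelial markers were not equal in their change. Clec14a (-3.17), the extracellular matrix partner Mmrn2 (-1.89), Sox17 (-1.71) and Emcn (-1.69) lay near or below Tek, while Nos3 (0.20, adjusted p = 0.613) and Ecscr (0.20) stood at the other end, and these were chosen after their values were seen. Nos3 was at 29.1, 32.8 and 33.5 CPM in FL 1 to 3 and at 24.6, 53.5 and 31.4 CPM in EC-KO 1 to 3, so that EC-KO 2 alone lay above the FL range.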
